A study of Mus musculus with 10 samples.

Results

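White blood cells in the right ventricle were read through 10 marker genes of macrophages, complement and leukocytes: Adgre1, Csf1r, Cd14, Cd68, Lyz2, C1qa, C1qb, Ptprc, S100a8 and S100a9. The genes were taken by name, and every probe set whose array annotation gives 1 of these symbols was used, which gave 14 of the 22690 probe sets on the array and 10 of its 12393 genes with a symbol. Csf1r and C1qb have 3 probe sets each, and the other 8 genes have 1 each. The brightest probe set stands for a gene unless another is named.

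The series asked how the right ventricle of mice labelled plakoglobin (+/-), heterozygous for this desmosome gene, answers to swimming. RNA of 10 mice of strain 129SV was hybridised to 10 arrays. There were 4 trained plakoglobin (+/-) mice and 4 trained wildtype mice, all 6 months old with 2 males and 2 females per group, and 1 untrained plakoglobin (+/-) and 1 untrained wildtype mouse, both females of 10 months. Trained mice swam in water of 35 °C for 5 min per day at first and 90 min per day at the end, 6 times per week. Wildtype mice were littermates, but which mice pair up is not stated, and the sources used here do not say how the plakoglobin allele was made. An untrained group of 1 mouse has no spread of its own, and training cannot be told apart from age. As this is bulk tissue, fewer cells of a type and less RNA per cell cannot be told apart.

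Resident macrophages of the heart clear dead cells and debris and depend on the growth factor receptor encoded by Csf1r. They are also a main source of C1q, the recognition molecule that starts the classical complement pathway and is built of A, B and C chains. Neutrophils and young monocytes come from the blood and carry large amounts of S100a8 and S100a9, the subunits of calprotectin.

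PU.1, an ETS family factor, is required for the myeloid lineage, and its core motif GAGGAA was searched on both strands of the RefSeq promoter windows (GRCm38.p6), which run from 250 bases before to 50 bases after a gene's start. The table held windows for 6 of the 10 genes, 7 windows in all, because Ptprc has 2. The motif was in 4 of the 7, against 28.3% of all 32851 windows. The stretches below, each on its gene's strand, are 1 match per gene for the 4 genes that have the motif, and capitals mark it (TTCCTC is the motif read from the other strand).
C1qb: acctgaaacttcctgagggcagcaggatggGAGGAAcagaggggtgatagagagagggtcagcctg
Ptprc: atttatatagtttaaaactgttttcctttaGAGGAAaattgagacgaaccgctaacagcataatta
S100a8: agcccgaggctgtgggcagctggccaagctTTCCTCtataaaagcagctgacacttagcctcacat
Cd68: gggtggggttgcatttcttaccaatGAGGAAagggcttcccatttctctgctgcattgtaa
The C1qb stretch lies at chr4:136886195-136886260 (minus strand) and its match begins 30 bases before the gene's start. The Ptprc stretch lies at chr1:138175428-138175493 (minus strand), with its match 158 bases before the start. The S100a8 stretch lies at chr3:90669005-90669070 (plus strand), with its match 36 bases before the start. The Cd68 stretch lies at chr11:69666360-69666420 (minus strand), with its match 225 bases before the start. S100a8 and Cd68 each hold 1 further match, while the windows of Lyz2 and S100a9 hold none. A match is a run of letters in the reference and was not tested as a binding site.

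The labelled tissue was checked against ventricular myocyte genes such as Myl2 and Myl3. All 10 were bright enough to test. Their summed signal ran from 1.99e+06 to 2.56e+06 in trained mice and from 2.45e+06 to 2.90e+06 in untrained mice. That of the 4 atrial myocyte genes on the array ran from 2596 to 5010 in trained and from 2512 to 3916 in untrained mice. On 3 arrays the GAPDH control for RNA quality stood apart. Dividing the GAPDH control signal near the 3' end by that near the 5' end, a quotient that grows as RNA is degraded, gave 2.98 in trained plakoglobin (+/-) replicate 1, 2.50 in trained wildtype replicate 1 and 17.8 in trained wildtype replicate 2. The other 7 arrays had 0.849 to 1.02. The same quotient for actin was 2.65, 3.05 and 1.29 on the 3 arrays in that order, and 0.932 to 1.24 on the other 7. By actin, trained wildtype replicate 2 thus lay near the other 7 arrays. Both replicates 1 are males, and the mouse with 17.8 is a female.

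**Figure D1:**
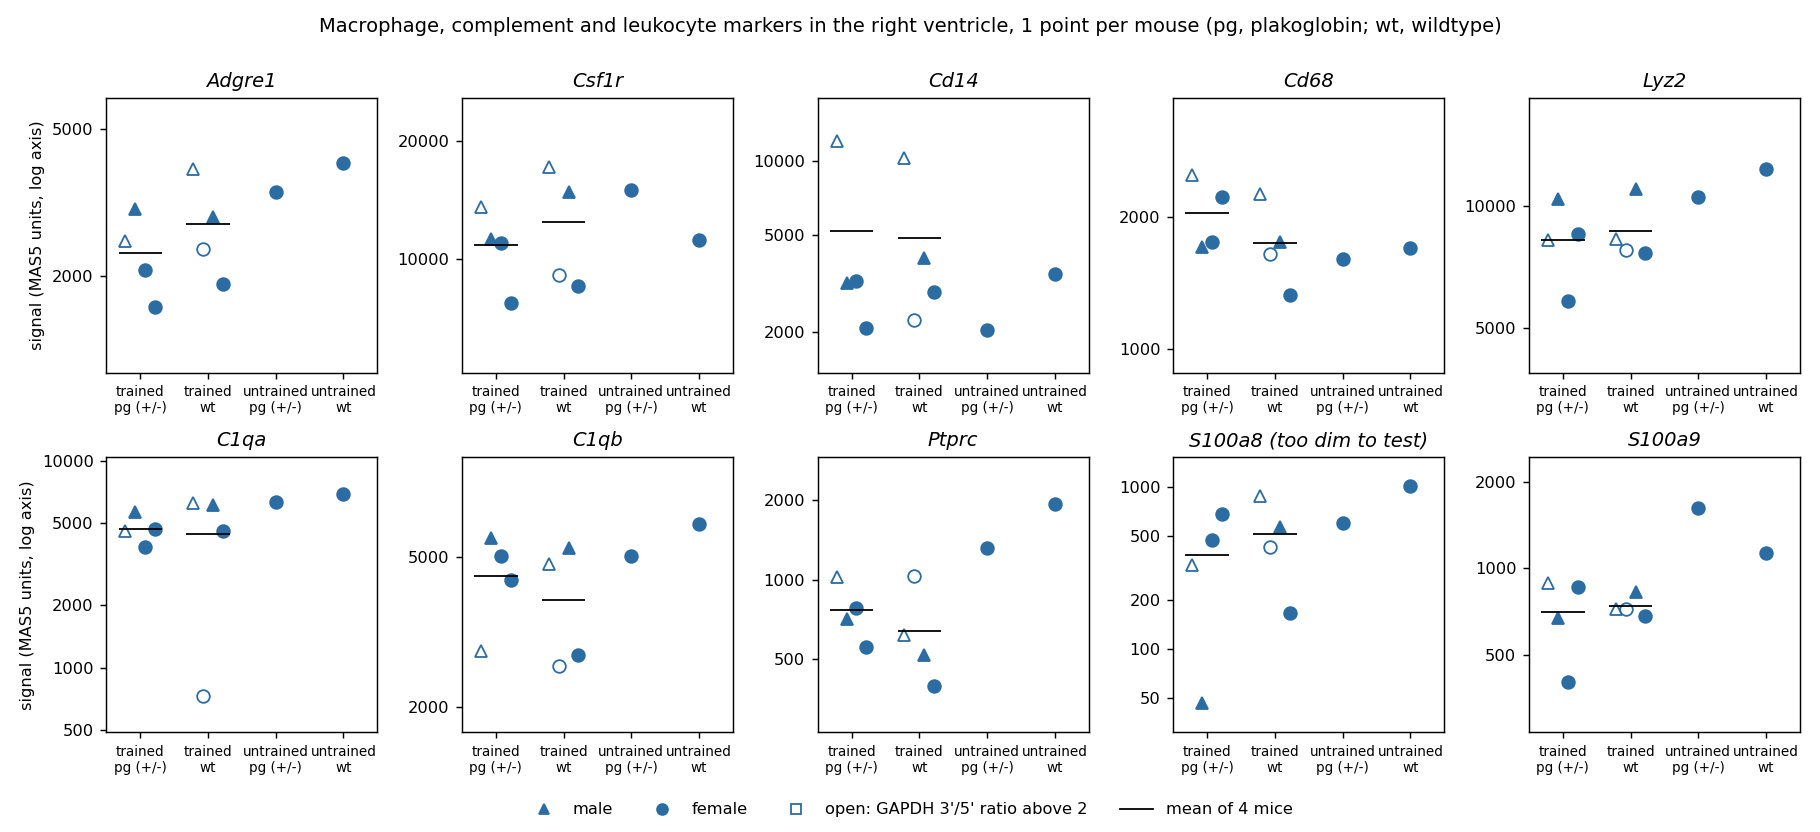
Signals of the 10 marker genes (MAS5 units, log axis) with 1 point per mouse, triangles for males, circles for females, open symbols for the 3 arrays with a GAPDH 3' to 5' ratio above 2, and a line at the mean of each group of 4. For C1qa, Ptprc and S100a9 each trained mouse lies below both untrained mice, and the open triangles stand high for Cd14.

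The first comparison set the 8 trained mice against the 2 untrained mice. In a fit with genotype and sex terms, 8 of the 9 genes bright enough to test were lower in trained mice, Cd68 being the exception. None of the differences passed the test over all probe sets. The most negative were those of the pan-leukocyte gene Ptprc (-1.30 on the log2 scale), the complement gene C1qa (-1.25), the neutrophil gene S100a9 (-1.08) and the macrophage gene Adgre1 (-0.90). Without the sex term 7 of the 9 were lower, and Cd14 (0.60) was higher as well as Cd68.

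Adgre1 encodes an adhesion G protein-coupled receptor, the classical surface marker of mouse tissue macrophages. Its signal was 2482, 3044, 2072 and 1645 in the trained plakoglobin (+/-) mice and 3904, 2371, 2890 and 1904 in the trained wildtype mice, against 3371 in the untrained plakoglobin (+/-) and 4054 in the untrained wildtype mouse. All trained mice but 1 wildtype male lay below both untrained mice. The difference was -0.90 (SE 0.23; adjusted p = 0.173, limma), a ratio of 0.536. It was the lowest adjusted p among the marker genes and moved to 0.0599 without the 3 arrays of high GAPDH ratio, where the difference was -0.97.

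Csf1r encodes the receptor for the macrophage growth factors CSF1 and IL-34. Its brightest probe set read 13567, 11207, 10947 and 7690 in the trained plakoglobin (+/-) mice and 17160, 9093, 14788 and 8511 in the trained wildtype mice. The untrained plakoglobin (+/-) mouse read 14988 and the untrained wildtype mouse 11133, inside the trained range. The difference was -0.52 (SE 0.23; adjusted p = 0.552, limma), while the further probe sets gave 0.20 (SE 0.26, identifier ending in s_at) and -0.01 (SE 0.20, ending in a_at). Without the untrained plakoglobin (+/-) mouse the brightest probe set gave -0.23, and without the untrained wildtype mouse it gave -0.82. The 3 probe sets of Csf1r thus disagreed in sign, and their signals correlated over the 10 mice with Pearson r between 0.06 and 0.56.

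Lyz2 encodes lysozyme M, an enzyme that cuts bacterial cell walls and is made by macrophages and granulocytes. It read 8232, 10410.1, 5833 and 8543 in trained plakoglobin (+/-) mice and 8315, 7806, 11001 and 7648 in trained wildtype mice, against 10538 and 12331 in the untrained plakoglobin (+/-) and wildtype mouse. Of the trained mice 7 lay below both untrained mice, and the remaining one, a wildtype male, lay between them. The difference was -0.63 (SE 0.22; adjusted p = 0.384, limma).

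C1qa and C1qb encode the A and B chains of C1q and are neighbours in the genome with C1qc. C1qa read 4568, 5662, 3848 and 4661 in trained plakoglobin (+/-) mice and 6255, 732, 6103 and 4550.1 in trained wildtype mice, against 6285 and 6931 in the untrained plakoglobin (+/-) and wildtype mouse. Each of the 8 trained mice read less than both untrained mice, by little for the 2 highest, and the 732 belongs to the array with the GAPDH ratio of 17.8. The difference was -1.25 (SE 0.60; adjusted p = 0.609, limma) and was -0.57 without that array.

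The brightest C1qb probe set read 2805, 5589.6, 5020.5 and 4335 in trained plakoglobin (+/-) mice and 4786, 2573, 5272 and 2751 in trained wildtype mice, against 5028 and 6101 in the untrained plakoglobin (+/-) and wildtype mouse. Of the trained mice 6 lay below both untrained mice. The difference was -0.65 (SE 0.35; adjusted p = 0.675, limma), and both further probe sets were also negative, at -0.44 (SE 0.33) and -0.43 (SE 0.47). Mouse by mouse the 3 did not follow each other, with r between -0.24 and -0.06. The identifiers of the 2 dimmer probe sets end in x_at, which means that some of their probes also match other transcripts. Without the untrained wildtype mouse the difference of the brightest was -0.40.

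Ptprc encodes CD45, a phosphatase on the surface of nearly all white blood cells. It read 1022, 708, 781 and 557 in trained plakoglobin (+/-) mice and 615, 1032, 516 and 396 in trained wildtype mice, against 1319 in the untrained plakoglobin (+/-) mouse and 1940 in the untrained wildtype mouse. The groups did not overlap. The difference of -1.30 (SE 0.48; adjusted p = 0.431, limma) is a ratio of 0.406, and it was -0.86 without the untrained wildtype mouse.

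S100a9 read 889.6, 669, 403 and 862 in trained plakoglobin (+/-) mice and 718, 723, 829 and 679 in trained wildtype mice, against 1622 and 1131 in the untrained plakoglobin (+/-) and wildtype mouse. Here too the groups did not overlap, with a difference of -1.08 (SE 0.42; adjusted p = 0.474, limma). Its partner S100a8 was too dim for the test. It read 332, 46.5, 468 and 677 in trained plakoglobin (+/-) mice and 881, 425, 564 and 167 in trained wildtype mice, against 597 and 1013 in the untrained plakoglobin (+/-) and wildtype mouse. Of the trained mice 6 lay below both untrained mice, and 1 value was under the floor of 104.

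Cd14, the receptor that hands bacterial lipopolysaccharide to the Toll-like receptor complex, had no common direction. It read 12146, 3166, 3236 and 2077 in trained plakoglobin (+/-) mice and 10283, 2239.8, 3999.5 and 2905 in trained wildtype mice, against 2037 and 3453 in the untrained plakoglobin (+/-) and wildtype mouse. The 2 highest signals belong to replicate 1 of each trained group, both males on arrays with a GAPDH ratio above 2. The chemokine gene Cxcl2, which like Cd14 is induced in myeloid cells by bacterial products, was also highest in these 2 mice, at 5001 and 3580, against 441 to 833 in the other trained mice and 423 and 309 in the untrained plakoglobin (+/-) and wildtype mouse. The part of RNA quality in this was not tested.

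Cd68, a glycoprotein of macrophage lysosomes, read 2485, 1703, 1753 and 2212 in trained plakoglobin (+/-) mice and 2251, 1648, 1754 and 1327 in trained wildtype mice, against 1603 and 1696 in the untrained plakoglobin (+/-) and wildtype mouse. Above both untrained mice lay 6 of the trained mice, and 1 lay below both. The differences of Cd68 (0.05, SE 0.27) and Cd14 (-0.04, SE 0.51) were small beside their standard errors.

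By limma with Benjamini-Hochberg adjustment, 0 of the 13 tested probe sets passed at an adjusted p under 0.05, while 0.626% of all 13576 tested probe sets passed. An unadjusted p under 0.05 with a lower signal was reached by 5 of the 13 (Adgre1, Csf1r, Lyz2, Ptprc and S100a9), against 3.73% of all tested probe sets. A lower signal of any size was found at 11 of the 13, against 50.2% of all. Trained and untrained mice did not overlap, trained lower, at 3 of the 13, against 4.61% of all. The markers were chosen with earlier results of these data known, so these counts describe the markers and do not test them. The median over the 9 genes was -0.65, and that over all 8365 tested genes was 0.00. Because both untrained mice were females and the fit holds a sex term, these differences rest on the 4 trained females against the 2 untrained females. Without the sex term the median was -0.48, and single values were -0.59 for Adgre1, -0.20 for Csf1r, -0.74 for C1qa and 0.60 for Cd14. When the arrays with a GAPDH quotient above 2 were left out, 7 of the 9 genes were lower, with a median of -0.59.

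**Figure D2:**
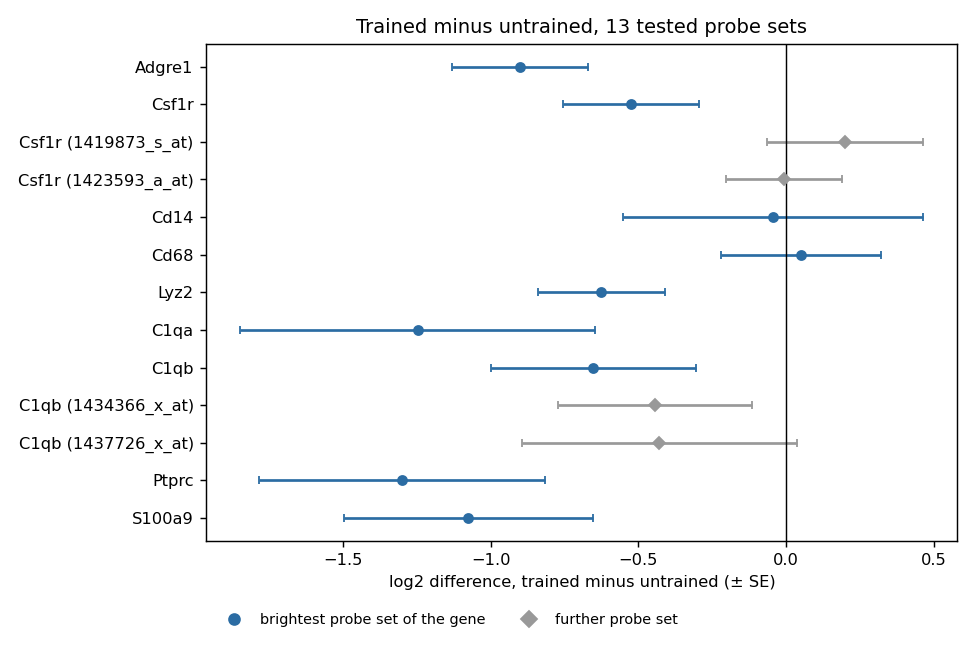
Log2 difference of trained minus untrained mice (x axis, bars are the SE from limma) for the 13 tested probe sets of the marker genes, circles for the brightest probe set of a gene and diamonds for the others. The 9 circles run from -1.30 for Ptprc to 0.05 for Cd68, and the Csf1r probe sets lie on both sides of 0.

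The wider lists hold genes beyond the 10, but several of them also hold markers, so their counts are given with and without these. The phagocyte signalling and lysosome list holds no marker. Of its genes, 8 of 10 tested genes were lower in trained mice, with a median of -0.43, and 1 passed the test. This was Ctss, cathepsin S, a lysosomal protease of antigen-presenting cells. It read 3251, 2098, 1813 and 1964 in trained plakoglobin (+/-) mice and 3524, 1609, 2530.3 and 1576 in trained wildtype mice, against 4079 and 5216 in the untrained plakoglobin (+/-) and wildtype mouse. No trained mouse reached the level of either untrained mouse, and the difference was -1.41 (SE 0.26; adjusted p = 0.0421, limma). Over the alternatives its adjusted p ran from 0.0141 to 0.352. The call was lost without the untrained plakoglobin (+/-) mouse (adjusted p = 0.223) or the untrained wildtype mouse (0.352), without trained plakoglobin (+/-) replicate 3 (0.107) or 4 (0.0842), or without trained wildtype replicate 2 (0.0977), 3 (0.0526) or 4 (0.128), all by limma. It was also lost without the sex term (adjusted p = 0.251), with no filter on dim probe sets (0.0929), with eBayes without trend (0.0675) and with the GAPDH ratio as a covariate (0.0558). The inhibitory Fc receptor gene Fcgr2b had -1.04 (SE 0.28; adjusted p = 0.212, limma), and -1.16 (adjusted p = 0.0471, limma) without the arrays with a GAPDH quotient above 2.

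Of the complement list 8 of 10 tested genes were lower, with a median of -0.63, and 1 passed. Leaving out the markers C1qa and C1qb, 6 of 8 were lower (median -0.59). The gene that passed was Cd59a, a membrane protein that protects the cell carrying it from the complement attack complex. It read between 2873 and 5860.1 in trained mice, against 12318 and 12298 in the untrained plakoglobin (+/-) and wildtype mouse, a difference of -1.45 (SE 0.27; adjusted p = 0.0389, limma). Over the alternatives its adjusted p ran from 0.00361 to 0.328. The call was lost without the untrained plakoglobin (+/-) mouse (adjusted p = 0.263) or the untrained wildtype mouse (0.328), without trained plakoglobin (+/-) replicate 3 (0.0695) or 4 (0.130), and without trained wildtype replicate 2 (0.0949) or 4 (0.0892), all by limma. It was also lost with no filter on dim probe sets (adjusted p = 0.0943) and with eBayes without trend (0.0831). C1qc, the third chain of C1q, had -0.86 (SE 0.27; adjusted p = 0.324, limma), and -0.44 without the sex term. Of the 8 trained mice 5 lay below both untrained mice and 3 above both. C3ar1, the receptor for the complement fragment C3a, had -0.60 (SE 0.28), and -0.31 without the untrained plakoglobin (+/-) mouse. At C3ar1 each trained mouse lay below both untrained ones, as at 4.61% of all tested probe sets. Neither C1qc nor C3ar1 passed.

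Of the macrophage list 11 of 16 tested genes were lower, with a median of -0.26, and 0 passed by limma, 3 having an unadjusted p under 0.05. Of these 3, Adgre1 and Csf1r are markers and C1qc is not. Leaving out its 5 markers, 7 of 11 were lower, with a median of -0.20. Among its genes with higher signals were Cd163 (0.74, SE 0.37), a haemoglobin scavenger receptor for which every trained mouse read more than both untrained ones, and Vsig4 (0.91, SE 0.42), a receptor for complement C3 fragments. Neither passed, and Vsig4 gave 0.39 when the untrained plakoglobin (+/-) mouse was left out and 1.43 when the wildtype one was. Both were named for the size of their difference, which makes a separation such as that of Cd163 likelier. The share of all tested probe sets that separate with trained mice higher is not given here, and 4.61% did so with trained mice lower. Of 11 pan-leukocyte genes 9 were lower (median -0.51, 0 passed by limma, 3 with an unadjusted p under 0.05). Without the marker Ptprc this was 8 of 10 (median -0.41). The largest difference in that list after Ptprc was a higher signal, that of Ncf4 (1.18, SE 0.55), which did not pass.

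Of the other leukocyte lists, monocyte genes were lower in 5 of 6 (median -0.10), neutrophil genes in 6 of 8 (-0.03), B cell genes in 3 of 5 (-0.11), dendritic cell genes in 2 of 3 (-0.32), T and NK cell genes in 1 of 2 (-0.01) and mast cell genes in 1 of 3 (0.02). None of these passed by limma, and 1 monocyte and 1 neutrophil gene, both among the 10 markers, had an unadjusted p under 0.05. Without the markers, 3 of 4 monocyte genes (median -0.09) and 5 of 7 neutrophil genes (median -0.03) were lower. The largest neutrophil difference was a higher signal, that of Ltf (1.68, SE 0.80; adjusted p = 0.605, limma). Ltf read 1134 and 202.5 in the untrained plakoglobin (+/-) and wildtype mouse. Most T and NK cell genes, 11 of the 13 on the array, were too dim to test. Of 11 chemokine and recruitment genes 8 were lower (median -0.27).

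Lists of other cell types gave lower signals too, in 8 of 9 fibroblast genes (median -0.33), 9 of 10 ventricular myocyte genes (-0.19), 6 of 9 endothelial genes (-0.06) and both lung epithelium genes (-0.75). Platelet genes were lower in 1 of 3 (0.11), and atrial myocyte genes (0.03) and adipocyte genes (0.03) in 1 of 2 each. Of these and the chemokine genes 0 passed by limma. With a lower signal, 3 fibroblast genes and 1 gene each of the ventricular myocyte, chemokine, endothelial and lung lists had an unadjusted p under 0.05 by limma. Of all tested probe sets 3.73% did so. With a higher signal, the myocyte gene Ryr2 (0.54) and the platelet gene Gp1bb (0.81) had one. Without the arrays with a GAPDH quotient above 2, 2 further genes passed as lower in the fit with the sex term. They were the fibroblast collagen gene Col3a1 (-1.30, adjusted p = 0.00108, limma) and the endothelial receptor gene Kdr (-1.26, adjusted p = 0.0108, limma). Col3a1 read 15703.5 and 14388.2 in the untrained plakoglobin (+/-) and wildtype mouse. Over all 8 trained mice, 5 lay below both of these values and 3 above both. The 2 tested erythroid genes, read as a sign of blood in the tissue, had a median of -0.62, and the summed signal of the 4 erythroid genes on the array ran from 1554 to 9787 in trained mice and from 5134 to 5177 in untrained mice. The part of blood content in the lower leukocyte signals was not tested.

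**Figure D3:**
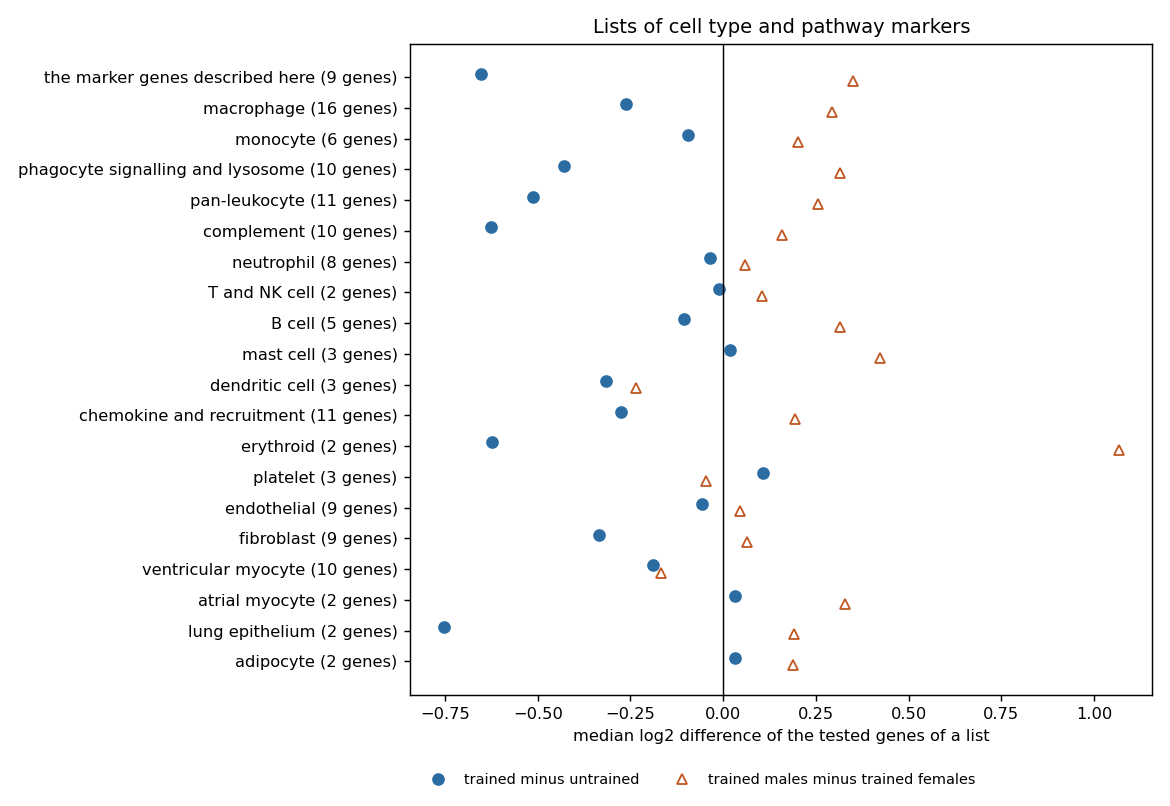
Median log2 difference of the tested genes of each list (x axis), filled circles for trained minus untrained mice and open triangles for trained males minus trained females. The marker genes described here lie at -0.65 and 0.35, and lists with 2 or 3 genes rest on few values.

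The second comparison, within the 8 trained mice, set the 4 males against the 4 females. All 9 tested genes and all 13 tested probe sets were higher in males, and 0 of the 13 passed by limma, where 0.0516% of all tested probe sets passed. A signal lower in males was found at 49.1% of all tested probe sets. An unadjusted p under 0.05 was reached by 3, Csf1r, Adgre1 and Cd14, against 4.06% of all tested probe sets higher in males. The median over the 9 genes was 0.35, and that over all tested genes was 0.03, with 54.5% of tested genes above 0.

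Adgre1 averaged 3080.2 ± 598 in trained males and 1998 ± 305 in trained females (SD, n = 4 each), and each of the 4 males lay above all 4 females. The difference was 0.62 (SE 0.20; adjusted p = 0.509, limma). Csf1r, by its brightest probe set, averaged 14181 ± 2481 in males and 9060.2 ± 1383 in females (SD, n = 4 each), again without overlap, a difference of 0.64 (SE 0.18; adjusted p = 0.496, limma). Its further probe sets gave 0.22 and 0.16. Such a separation, males higher, was seen at 2 of the 13 probe sets and at 2.98% of all tested probe sets.

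Cd14 averaged 7399 ± 4484 in trained males and 2615 ± 548 in trained females (SD, n = 4 each), with a difference of 1.29 (SE 0.43; adjusted p = 0.509, limma) that was 0.36 without the 3 arrays of high GAPDH ratio. C1qa had 1.01 (SE 0.51), and 0.34 without trained wildtype replicate 2, the female with the signal of 732. Lyz2 had 0.35 (SE 0.19), C1qb 0.34 (SE 0.29), S100a9 0.26 (SE 0.38), Cd68 0.24 (SE 0.23) and Ptprc 0.09 (SE 0.44). Without the 3 arrays all 9 genes were still higher in males, with a median of 0.42, over 2 males and 3 females.

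Of the macrophage list 15 of 16 tested genes were higher in trained males (median 0.29), or 12 of 16 without the 3 arrays (median 0.37). Leaving out its 5 markers, 10 of 11 were higher, with a median of 0.17. Among the genes that were no markers, C1qc had 0.84 (SE 0.24) and Ctss 0.69 (SE 0.22), with adjusted p of 0.496 and 0.509 by limma. Without the 3 arrays these were 0.54 and 0.38. All 10 ventricular myocyte genes were lower in males (median -0.17), and 9 of 10 were without the 3 arrays.

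Fibroblast and blood genes are given beside these. Of 9 fibroblast genes 6 were higher in males (median 0.06), 0 passed by limma and 3 had an unadjusted p under 0.05. Col3a1, a fibrillar collagen chain, read 12925 to 25007 in males and 6053 to 11503 in females, a difference of 1.38 (SE 0.26; adjusted p = 0.197, limma). Postn, a matrix protein of activated fibroblasts, read 1944 to 2814 in males and 518 to 1443 in females, a difference of 1.15 (SE 0.31; adjusted p = 0.496, limma). For both genes every male lay above every female, as at 2.98% of all tested probe sets. Without the 3 arrays 7 of the 9 were higher in males (median 0.51), 5 had an unadjusted p under 0.05, and Col3a1 passed at 1.92 (adjusted p = 0.00114, limma). In that fit 5 of the 9 marker genes and 7 of the 16 genes of the macrophage list, markers included, also had an unadjusted p under 0.05 by limma. The share of all tested probe sets that did so without the 3 arrays is not given here. The 2 tested erythroid genes were higher in males (median 1.07, and 0.49 without the 3 arrays), with a summed signal of 3660.4 to 9787 in males and 1554 to 7417 in females. The part of fibroblast or blood content in the higher marker signals of males was not tested.

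The third comparison set the trained plakoglobin (+/-) mice against trained wildtype mice. The signals of the marker genes did not move one way: 4 of the 9 were higher and 5 lower in plakoglobin (+/-) mice, the median was -0.01, and 0 of the 13 probe sets passed by limma, as did 0% of all 13576, and 0 had an unadjusted p under 0.05, against 2.01% of all. C1qa averaged 4685 ± 746 in plakoglobin (+/-) and 4410 ± 2570.2 in wildtype mice (SD, n = 4 each), a difference of 0.47 (SE 0.51) that was -0.21 without trained wildtype replicate 2. Adgre1 averaged 2311 ± 597 in plakoglobin (+/-) and 2767 ± 858 in wildtype mice (SD, n = 4 each), a difference of -0.25 (SE 0.20). Ptprc differed by 0.32 (SE 0.44), C1qb by 0.23 (SE 0.29), Cd68 by 0.23 (SE 0.23), Csf1r by -0.15 (SE 0.18), S100a9 by -0.12 (SE 0.38), Lyz2 by -0.09 (SE 0.19) and Cd14 by -0.01 (SE 0.43).

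The Csf1r probe set whose identifier ends in a_at separated the genotypes. It read 3059, 2963, 2548 and 2938 in trained plakoglobin (+/-) mice and 3694, 3158, 4008 and 3677 in trained wildtype mice. The difference was -0.34 (SE 0.17; unadjusted p = 0.0743, limma; it did not pass after adjustment), and genotypes did not overlap at 1.6% of all tested probe sets.

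**Figure D4:**
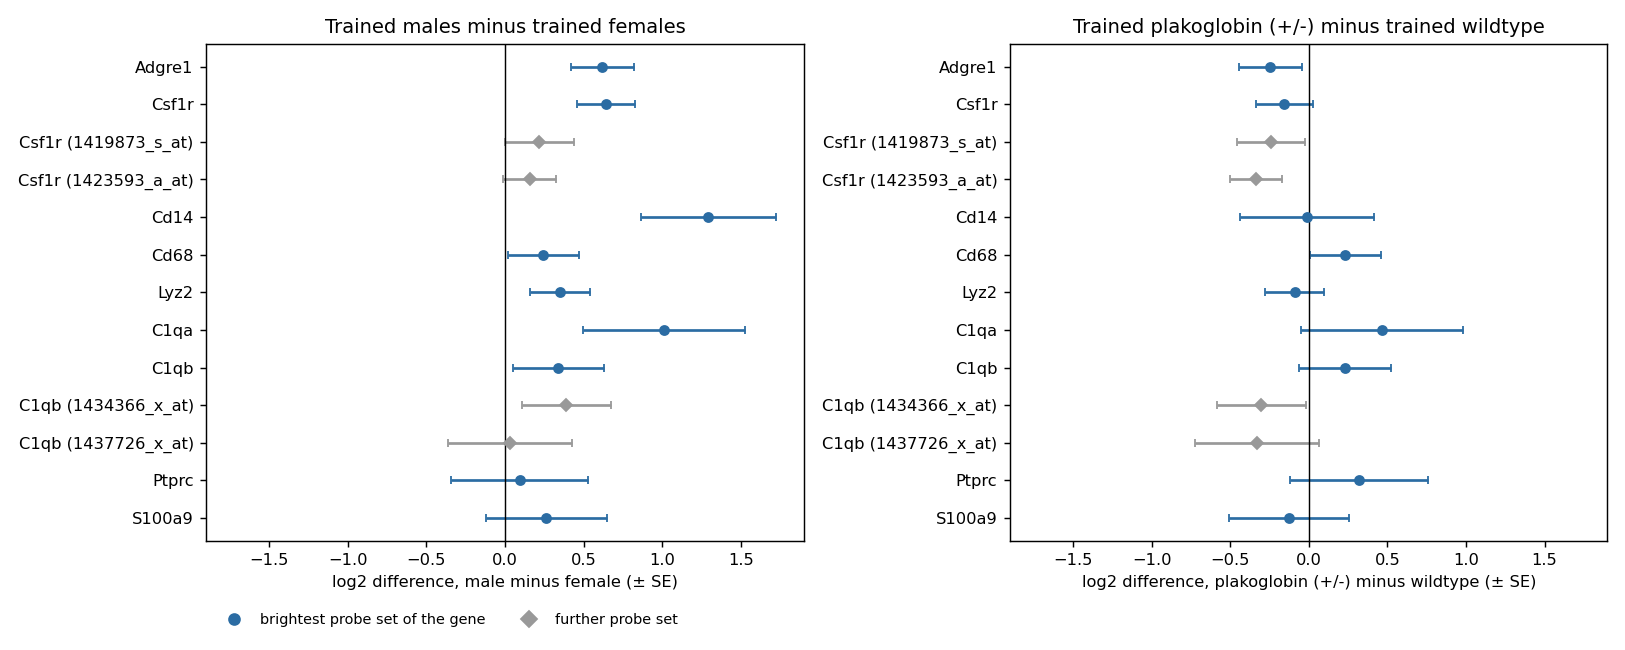
Log2 differences (x axis, bars are the SE from limma) of the 13 tested probe sets among trained mice, males minus females on the left and plakoglobin (+/-) minus wildtype on the right, circles for the brightest probe set of a gene and diamonds for the others. All points on the left are above 0, up to 1.29 for Cd14, while those on the right lie between -0.34 and 0.47.

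Whether the difference between trained and untrained mice depended on genotype was asked with a genotype by training term over all 10 mice. By limma 0 of the 13 probe sets passed and 0 had an unadjusted p under 0.05, against 0% and 3.2% of all tested probe sets. The terms of the probe sets ran from -0.67 (SE 0.87), for a C1qb probe set, to 0.88 (SE 0.87), for Ptprc. Between the untrained mice themselves, with no test, the brightest probe sets read higher in the plakoglobin (+/-) mouse at Csf1r and S100a9. They read lower in it at the other 8 genes. Further probe sets differed from this. In the plakoglobin (+/-) against the wildtype mouse, Csf1r read 2376 against 3909 (s_at) and 2861 against 3286 (a_at). A dimmer C1qb probe set read 1589 against 1257.

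Across the 10 mice the markers followed each other in part. Pearson correlations of log2 signals between the 9 tested genes were above 0 for 30 of 36 pairs, with a median of 0.31. The highest were between Adgre1 and Csf1r (r = 0.75), Lyz2 and S100a9 (0.74), C1qa and C1qb (0.66) and Cd14 and Cd68 (0.66). Cd14 and S100a9 had the lowest, at -0.13. The mice share the same arrays' quality and group differences, so these values describe the 10 arrays only.

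**Figure D5:**
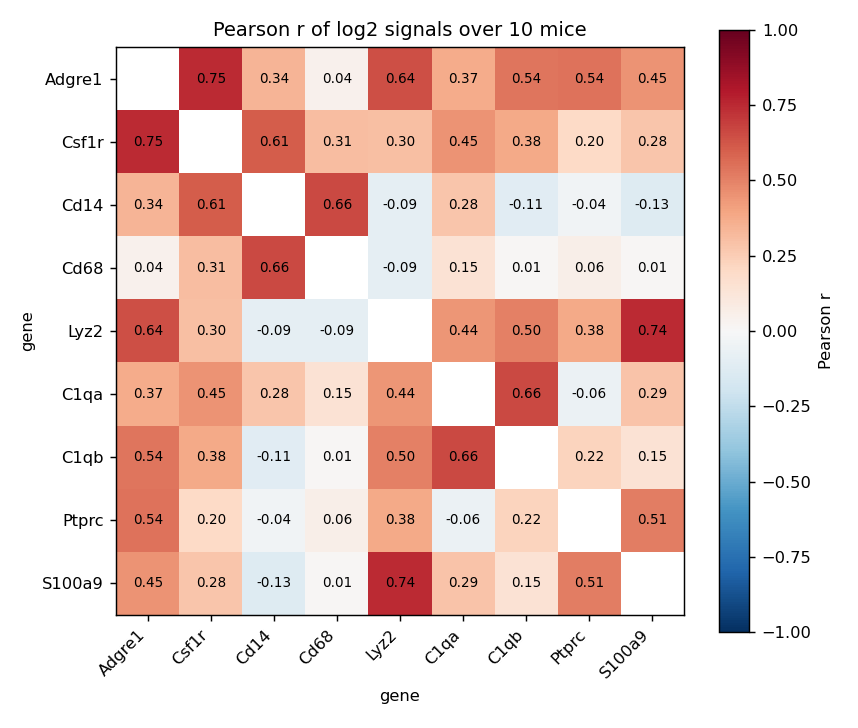
Pearson r between the log2 signals of each pair of the 9 tested marker genes over 10 mice, with genes on both axes and colour from -1 to 1. The pair Adgre1 and Csf1r is highest at 0.75, and Cd14 and Cd68 follow each other (0.66) more than they follow the rest.

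The mean centred log2 signal of the 9 genes was 0.24, 0.04, -0.25 and -0.24 in trained plakoglobin (+/-) mice and 0.33, -0.52, 0.12 and -0.42 in trained wildtype mice, against 0.27 and 0.42 in the untrained plakoglobin (+/-) and wildtype mouse. The 4 trained males lay between 0.04 and 0.33 and the 4 trained females between -0.52 and -0.24, so that the males overlapped the untrained females and the trained females did not. Of all other tested genes, Ctss followed this mean most closely (r = 0.94, 10 mice). Next were Lgals1, which encodes galectin-1 (0.90), Pla2g5, a secreted phospholipase (0.89), Ypel3 (0.89) and the actin-bundling gene Fscn1 (0.88). These 5 genes, Ctss among them, were picked over the same 10 mice for following this mean. Lower signals in trained mice thus came largely with the choice. The differences between trained and untrained mice were -0.61 (SE 0.17) for Lgals1, -0.74 (SE 0.24) for Pla2g5, -0.48 (SE 0.20) for Ypel3 and -1.49 (SE 0.29) for Fscn1. None of these 4 passed, with adjusted p between 0.0541 and 0.515 by limma. Fscn1 did pass under quantile normalization (adjusted p = 0.0396), with the floor at the 25th percentile (0.0475), with the filter at the 60th percentile (0.0394), with robust eBayes (0.0475) and without the arrays with a GAPDH quotient above 2 (0.022), all by limma. Without the sex term its difference was -0.65, with an adjusted p of 0.818 by limma.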

How the data were processed

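The authors deposited linear signals, in the unit intensity, 1 per probe set and mouse, made with MAS5 version 5.0 per the submitters' processing notes. After trimming 2% at each end, the mean signal was 2501 or 2502 on every array. No detection calls, genome build or array batch were given in the sources used here, and the number of arrays limits the precision.

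Before taking log2, signals under 104 (10th percentile over the table) were set to 104. Leaving out 64 control probe sets and those whose average log2 signal fell below the 40th percentile kept 13576 for testing with limma 3.58.1 (eBayes with trend, two-sided) in R 4.3.3, and p values were adjusted over all of them by the Benjamini-Hochberg method at 0.05. Training was fitted over 10 mice with genotype and sex, genotype and sex over the 8 trained mice, and the genotype by training term over all mice. Replicate numbers are only names, and separate mice are the replicates. Symbols come from the array annotation: 20393 probe sets have 1, 691 several and 1606 none. The fit was checked on simulated data.

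The marker genes and the 19 wider lists were chosen with earlier results of these data known, among them a lower leukocyte list in trained mice. Named are all probe sets of the markers and the 5 genes most like the markers' mean. Other genes with values were taken from the up to 4 per wider list with the largest difference between trained and untrained mice. Not all of those are named. Alternatives were other normalizations, floors, filters and variance models, other terms, females only, a covariate for the GAPDH ratio, and mice left out.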

Additional observations from a re-analysis of the deposited data

Results flagged for a closer look

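Cd14 in trained plakoglobin (+/-) replicate 1 stood far above the rest of its group, at 12146 against 2077 to 3236 in the other 3 mice. The gap was 0.885 of the group's range, above Dixon's critical value for 4 samples. Of 28 groups checked (14 probe sets in 2 groups of 4) this was the only 1 flagged, and chance flags about 1 in 20. The array also had a GAPDH ratio of 2.98, and trained wildtype replicate 1, with a ratio of 2.50, read 10283.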

How the results depend on the processing

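The count of marker probe sets past the threshold was 0 in every comparison under every alternative run. Of 1244 values compared, 1161 kept their direction and side of the threshold or moved little. For a gene that did not pass, this asked only that its sign stay and that it still not pass. Counts could differ up to 1.5 times, and medians by up to 0.335 on the log2 scale. The share kept is therefore no measure of how stable the sizes are. The number of all probe sets called for training was 85, and 10 to 225 under the alternatives (10 without the untrained plakoglobin (+/-) mouse, 34 without the untrained wildtype mouse, 225 without the 3 arrays of high GAPDH ratio). For sex it was 7, and 1 to 17 under the alternatives. For the genotype by training term it was 0, and 66 with no filter. Without the sex term the training difference was 0.60 for Cd14 and 0.072 for the Csf1r a_at probe set. Without the 3 arrays it was 0.088 for Cd14 and 0.038 for that probe set, and the genotype difference was 0.0066 for Adgre1 and -0.11 for C1qa. With the GAPDH ratio as a covariate the training difference was -0.012 for Cd68 and 0.034 for the Csf1r a_at probe set, and the genotype difference was 0.13 for Cd14 and -0.10 for C1qa. With no filter 1 gene was lower in males, and with the filter at the 60th percentile 1 gene had a genotype by training term below 0. Leaving out 1 mouse at a time, the training difference ran from -0.42 to 0.33 for Cd14, from -0.11 to 0.21 for Cd68, from -0.039 to 0.44 for the Csf1r s_at and from -0.074 to 0.062 for its a_at probe set. The genotype difference ran from -0.39 to 0.38 for Cd14, from -0.19 to 0.030 for Lyz2, from -0.21 to 0.84 for C1qa and from -0.32 to 0.12 for S100a9, with 3 to 6 genes below 0. The sex difference ran from -0.13 to 0.42 for Ptprc, with 0 to 1 gene below 0. The cause of these shifts was not tested. No paired analysis was possible because the labels give no shared replicate numbers and do not say which mice are littermates. Dim signals limit S100a8, and 1 untrained mouse per genotype limits every training value.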
